A study of Mus musculus with 463 samples.

Results

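Described here are *Nepn*, *Spon1*, *Adamts1*, *Chst2*, *P2rx1*, *Rhov*, *Parm1*, *Sdpr* and *Kirrel2*, which is 9 of the 40824 genes in the count tables. They were listed by name because their reads were high in Pdx1-high cells of the mouse embryonic pancreas, and their products act at or around the cell surface: in the extracellular matrix, in the membrane or directly beneath it. They were chosen by the levels in Pdx1-high against Pdx1-low single cells, so those levels are given below as a description, without a test.

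The study followed the 2 buds from which the mouse pancreas forms, the ventral and the dorsal one, by RNA-seq of sorted embryonic cells. Bulk libraries, 2 per group, came from ventral and dorsal E10.5 Pdx1-GFP+ cells, from E14.5 Ngn3-GFP-high and Ngn3-GFP-low cells of each side, and from E17.5 Ins1-RFP+ cells of each side, each sorted from transgenic reporter embryos. Each bulk library came from a pool of sorted cells by poly(A) selection and a strand-specific kit. Single cells, 447 in all, were sequenced one by one with Smart-seq2, which reads along the whole transcript. They were E9.5 Pdx1-GFP+ cells (44 ventral, 31 dorsal), E10.5 Pdx1-GFP+ cells (59 ventral, 27 dorsal), E10.5 Pdx1-GFP-high cells (39 ventral, 28 dorsal), E10.5 Pdx1-GFP-low cells (39 ventral, 40 dorsal), ventral Pdx1-GFP-low cells split by the hepatoblast surface antigen Liv2 (54 positive, 59 negative), 23 Liv2+ liver bud cells, and 4 E15.5 liver cells marked by Pdx1-Cre and a tdTomato reporter. A gate reads the reporter and not the endogenous transcript, and in bulk libraries fewer cells of a type and less RNA per cell cannot be told apart. Pooling of embryos and the number of embryos behind a library are not stated in the labels. The cell names carry a set number, whose meaning is not stated either; cells were summed per set, and p-values measure only the spread between sets or libraries, which may be technical.

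Pdx1 is a homeodomain transcription factor that marks the pancreatic and duodenal region of the gut tube. Progenitors that enter the endocrine lineage switch on Ngn3 for a short time, leave the epithelium and become hormone-producing cells such as the insulin-producing beta cells. Secreted matrix proteins, the enzymes that trim or sulfate them, adhesion proteins and regulators of the cytoskeleton shape how an epithelium holds together and how cells leave it.

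By role, nephrocan (*Nepn*) is a secreted protein of the small leucine-rich proteoglycan type, F-spondin (*Spon1*) is a secreted matrix protein with thrombospondin repeats, and *Adamts1* encodes a secreted metalloprotease that cleaves matrix proteoglycans. *Chst2* encodes a Golgi sulfotransferase that places sulfate on N-acetylglucosamine of glycans bound for the cell surface. In the membrane, *P2rx1* encodes an ATP-gated cation channel, *Kirrel2* a nephrin-family adhesion protein of the immunoglobulin superfamily, and *Parm1* a mucin-like transmembrane protein. *Rhov* encodes a small GTPase that works beneath the membrane, and *Sdpr*, now called *Cavin2*, a protein that coats caveolae. In the GENCODE annotation of GRCm38 the genes lie apart from one another: *Nepn* at chr10:52388972-52404625, *Spon1* at chr7:113765998-114043370, *Adamts1* at chr16:85793827-85803113, *Chst2* at chr9:95399292-95406722, *P2rx1* at chr11:72999103-73015200, *Rhov* at chr2:119269201-119271272, *Parm1* at chr5:91517615-91626894, *Sdpr* at chr1:51289126-51302960 and *Kirrel2* at chr7:30447534-30457690. Each value below is the sum over a gene's exons. Among the 9, *Sdpr* alone overlapped another annotated gene, the antisense *9330175M20Rik*, with 0 exon bases shared.

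The start-site regions of 4 members are shown because *Nepn* reached the highest level of the 9 and then was nearly lost, while *Chst2*, *P2rx1* and *Rhov* followed the most similar pattern to one another across the sorted groups (values below). Each runs from 250 bases before to 50 bases after the gene start in RefSeq (GRCm38.p6), 5′ to 3′ on the gene's own strand. RefSeq and GENCODE place some starts differently: the *Nepn* window lies inside the GENCODE span given above, and the *Chst2* window lies upstream of its span. Capitals mark the TATA-type hexamer TATAAA and the E-box CANNTG, the 6-letter word read by basic helix-loop-helix factors, on either strand.
Nepn, chr10:52391358-52391657, plus strand: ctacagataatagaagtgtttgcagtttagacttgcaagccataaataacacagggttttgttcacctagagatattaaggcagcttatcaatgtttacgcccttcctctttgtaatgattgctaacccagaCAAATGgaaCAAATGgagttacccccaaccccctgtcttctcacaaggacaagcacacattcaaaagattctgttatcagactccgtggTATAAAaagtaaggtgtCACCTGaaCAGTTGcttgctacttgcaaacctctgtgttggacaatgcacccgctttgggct
Chst2, chr9:95407221-95407520, minus strand: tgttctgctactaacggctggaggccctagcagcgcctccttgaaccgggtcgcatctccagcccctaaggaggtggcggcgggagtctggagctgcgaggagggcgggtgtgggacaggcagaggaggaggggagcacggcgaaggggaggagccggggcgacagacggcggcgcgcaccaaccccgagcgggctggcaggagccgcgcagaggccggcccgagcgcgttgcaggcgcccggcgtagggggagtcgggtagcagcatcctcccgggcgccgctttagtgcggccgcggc
P2rx1, chr11:72998895-72999194, plus strand: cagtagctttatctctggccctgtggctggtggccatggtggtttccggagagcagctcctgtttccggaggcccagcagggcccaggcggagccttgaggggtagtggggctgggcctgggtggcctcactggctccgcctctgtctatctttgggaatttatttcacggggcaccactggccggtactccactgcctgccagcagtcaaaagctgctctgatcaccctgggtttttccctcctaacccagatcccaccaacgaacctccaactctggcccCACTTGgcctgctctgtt
Rhov, chr2:119271177-119271476, minus strand: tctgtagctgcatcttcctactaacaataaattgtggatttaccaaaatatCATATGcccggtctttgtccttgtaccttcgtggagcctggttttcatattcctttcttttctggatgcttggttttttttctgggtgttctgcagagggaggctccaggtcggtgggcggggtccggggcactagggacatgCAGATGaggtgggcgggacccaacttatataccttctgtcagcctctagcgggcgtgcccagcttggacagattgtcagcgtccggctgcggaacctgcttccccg

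A RefSeq start region was matched for 8 of the 9 members (*Sdpr* under *Cavin2*; *Spon1* had no entry). The hexamer TATAAA stood in the *Nepn* and *Adamts1* regions, and in 13.6% of all 32851 mouse start regions of this length. CANNTG occurred 4 times in *Nepn*, 2 times each in *Rhov* and *Parm1*, 1 time each in *P2rx1* and *Kirrel2*, and 0 times in *Chst2*, *Adamts1* and *Sdpr*; 72.3% of all regions held it at least 1 time. One of the *Rhov* E-boxes reads CAGATG, a word found in 17.2% of all regions. The homeodomain core TAATTA was in 0 of the 8 regions, against 5.29% of all regions. Base composition varied widely, with G and C making up 42.3% of the *Nepn* region and 73.0% of the *Chst2* region, where the median of all regions was 52.7%. None of these motifs was in all 4 printed sequences, and a match or its absence in this window says nothing of what binds there.

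Bulk libraries held 8779418 to 24551520 reads on genes. Per cell, reads on genes ran from 201191 to 1738015 with a median of 1064163, and the median cell had 9578 genes detected. No 2 libraries or cells had identical counts. Levels are CPM, a gene's reads scaled to a common total, and RPKM, which also divides by exon length, where genes are compared with each other. For single cells the total is the cell's reads on genes; for bulk libraries and sets it is the reads on genes that passed a filter on low counts, adjusted by a scaling factor of the library (TMM). *Pdx1* itself was at 10 CPM or more in 39 of 39 ventral and 28 of 28 dorsal Pdx1-high cells, against 13 of 39 ventral and 6 of 40 dorsal Pdx1-low cells, and in 23 of 59 ventral Pdx1-low Liv2- cells. Cells of 2 sets stood apart. Dorsal E10.5 Pdx1+ set 3 (6 cells) had 15829 to 58454 CPM of the glucagon gene *Gcg* in each cell and 0 to 2 members per cell. In dorsal Pdx1-low set 4, 1 of its 4 cells carried all 9 members with 10081 CPM of *Nepn* and 287 CPM of *Pdx1*, while its other 3 cells had 34824 to 75823 CPM of *Gcg* and 0 to 2 members. Of the 44 ventral E9.5 cells, 25 carry a growth protocol for human stem cells in their labels, although they are labelled as mouse cells.

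In E10.5 Pdx1-high cells the 9 genes were detected together. At a threshold of 10 CPM, the median Pdx1-high cell had all 9 members, on the ventral as on the dorsal side. Of 39 ventral Pdx1-high cells, 37 (94.9%) had 7 to 9 members, and 23 had all 9. Of 28 dorsal Pdx1-high cells, 26 (92.9%) had 7 to 9 members, and 16 had all 9. Among Pdx1-low cells, none of 39 ventral cells and 1 of 40 dorsal cells, the cell of set 4 described above, reached 7 members. None of the 54 Liv2+ or 59 Liv2- ventral Pdx1-low cells, of the 23 liver bud cells or of the 4 E15.5 cells reached 7 either. The matrix of shares by gene and group shows that single members were also read outside the Pdx1-high gate, and that these differed by side. On the ventral side *Parm1* was at 10 CPM or more in 23 of 39 Pdx1-low cells and 45 of 59 Pdx1-low Liv2- cells, and *Adamts1* in 14 of 39 Pdx1-low cells. On the dorsal side *Nepn* was at 10 CPM or more in 16 of 40 Pdx1-low cells, *Parm1* and *Kirrel2* in 10 of 40 each, and *Adamts1* in 1 of 40.

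**Figure D1:**
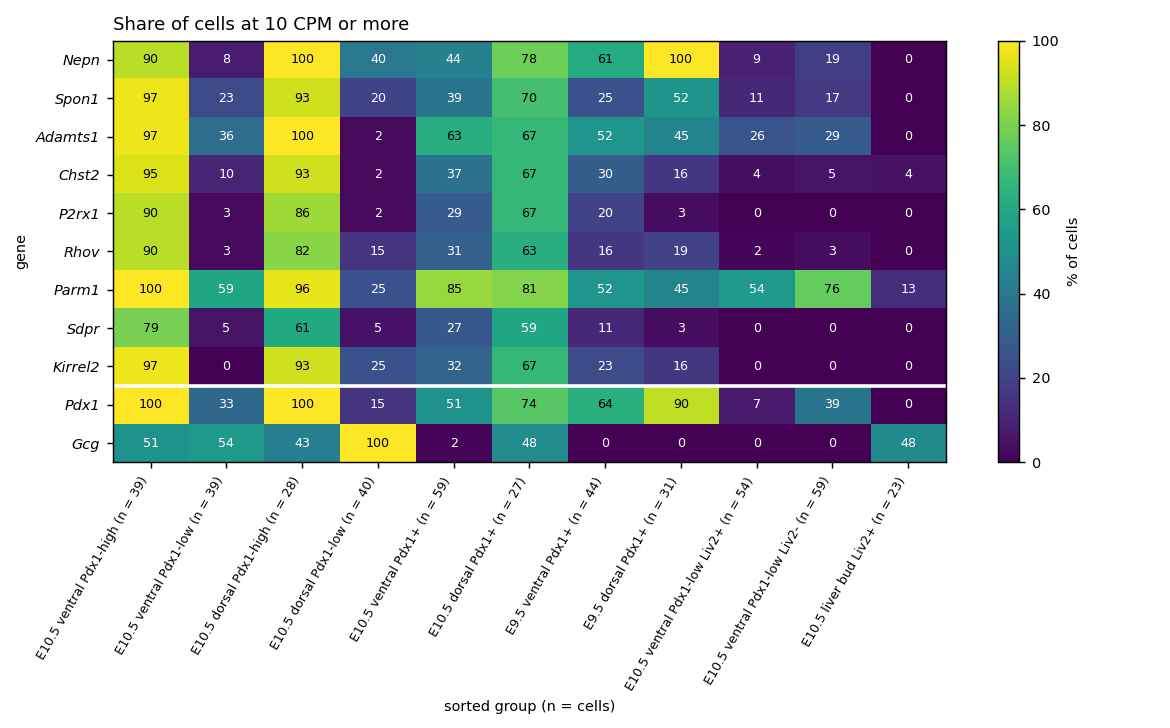
Share of cells (percent, colour and printed value) in which each member (rows above the white line), *Pdx1* and *Gcg* reached 10 CPM, for 11 sorted groups of single cells (columns, n = cells). The members fill both Pdx1-high columns, at 60.7 to 100%, while *Kirrel2* is at 0% in ventral Pdx1-low cells and *Gcg* at 100% in dorsal Pdx1-low cells.

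Levels per set, summed over the cells of a set, describe the contrast that chose the genes. Ventral Pdx1-high sets numbered 5, ventral Pdx1-low sets 5, dorsal Pdx1-high sets 5 and dorsal Pdx1-low sets 6, each of 3 cells or more. The groups did not overlap for 9 of 9 members on the ventral side, where 1.59% of all 17433 genes tested were higher without overlap, and for 8 of 9 on the dorsal side, where 4.98% of genes were. The exception was *Sdpr* on the dorsal side.

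*Nepn* had 2488, 302, 2568, 3068 and 3749 CPM in ventral Pdx1-high sets, against 4.77, 6.48, 7.94, 2.21 and 1.62 CPM in ventral Pdx1-low sets. On the dorsal side it had 8317, 5154, 10409, 5410 and 7053 CPM in Pdx1-high sets, against 36.8, 0.309, 69.2, 1708, 208 and 34.0 CPM in Pdx1-low sets. Every Pdx1-high set lay above every Pdx1-low set of its side, and the dorsal Pdx1-low value of 1708 CPM belongs to set 4. *Spon1* ran from 424 to 647 CPM in ventral Pdx1-high sets, against 0 to 39.1 CPM in ventral Pdx1-low sets. In dorsal cells it ran from 291 to 712 CPM in Pdx1-high sets, against 0.337 to 105 CPM in Pdx1-low sets, the 105 CPM again being set 4. *Adamts1* showed the smallest ventral contrast of the 9, with a log2 fold of 2.82. Its ventral Pdx1-high sets had 389, 641, 614, 225 and 407 CPM, against 25.9, 29.1, 30.9, 20.1 and 214 CPM in Pdx1-low sets, so the lowest high set and the highest low set nearly met. Its dorsal Pdx1-high sets had 365 to 1110 CPM, against 52.0 CPM in Pdx1-low set 4 and at most 0.418 CPM in the other 5 Pdx1-low sets.

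*Chst2* had 286 to 632 CPM in ventral Pdx1-high sets, against 0.240 to 9.43 CPM in Pdx1-low sets. In dorsal cells *Chst2* had 159 to 389 CPM in Pdx1-high sets, against 82.0 CPM in Pdx1-low set 4 and at most 0.337 CPM in the other 5. The channel gene *P2rx1* had 165, 209, 184, 172 and 152 CPM in ventral Pdx1-high sets, against 0 CPM in 4 Pdx1-low sets and 3.43 CPM in set 6. The 5 ventral Pdx1-high sets lay close together and far above the Pdx1-low sets. In dorsal cells *P2rx1* had 53.6 to 175 CPM in Pdx1-high sets, against 36.1 CPM in Pdx1-low set 4 and at most 0.209 CPM in the other 5. *Kirrel2* had 299 to 395 CPM in ventral Pdx1-high sets, against at most 0.402 CPM in Pdx1-low sets, the largest ventral contrast of the 9 (log2 fold 11.13). In dorsal cells *Kirrel2* had 133 to 526 CPM in Pdx1-high sets, against 0 to 63.3 CPM in Pdx1-low sets. The mucin-like *Parm1* had 302 to 563 CPM in ventral Pdx1-high sets, against 27.4 to 59.4 CPM in Pdx1-low sets. In dorsal cells *Parm1* had 207 to 336 CPM in Pdx1-high sets, against 0 to 97.6 CPM in Pdx1-low sets, the 97.6 CPM being set 4.

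*Rhov* had 101 to 238 CPM in ventral Pdx1-high sets, against 0 CPM in 4 Pdx1-low sets and 11.7 CPM in set 6. In dorsal cells *Rhov* had 79.6 to 154 CPM in Pdx1-high sets, against 0 to 29.0 CPM in Pdx1-low sets. *Sdpr* was the member found in the fewest Pdx1-high cells, 31 of 39 ventral (79.5%, exact 95% interval 63.5 to 90.7%) and 17 of 28 dorsal (60.7%, 40.6 to 78.5%); these intervals cover counting error only. Its dorsal Pdx1-high sets had 40.6, 96.1, 22.3, 156 and 142 CPM, against 0, 0, 0, 25.1, 0.209 and 2.36 CPM in Pdx1-low sets. The overlap came from set 4 (25.1 CPM in Pdx1-low) and the Pdx1-high set with 22.3 CPM.

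**Figure D2:**
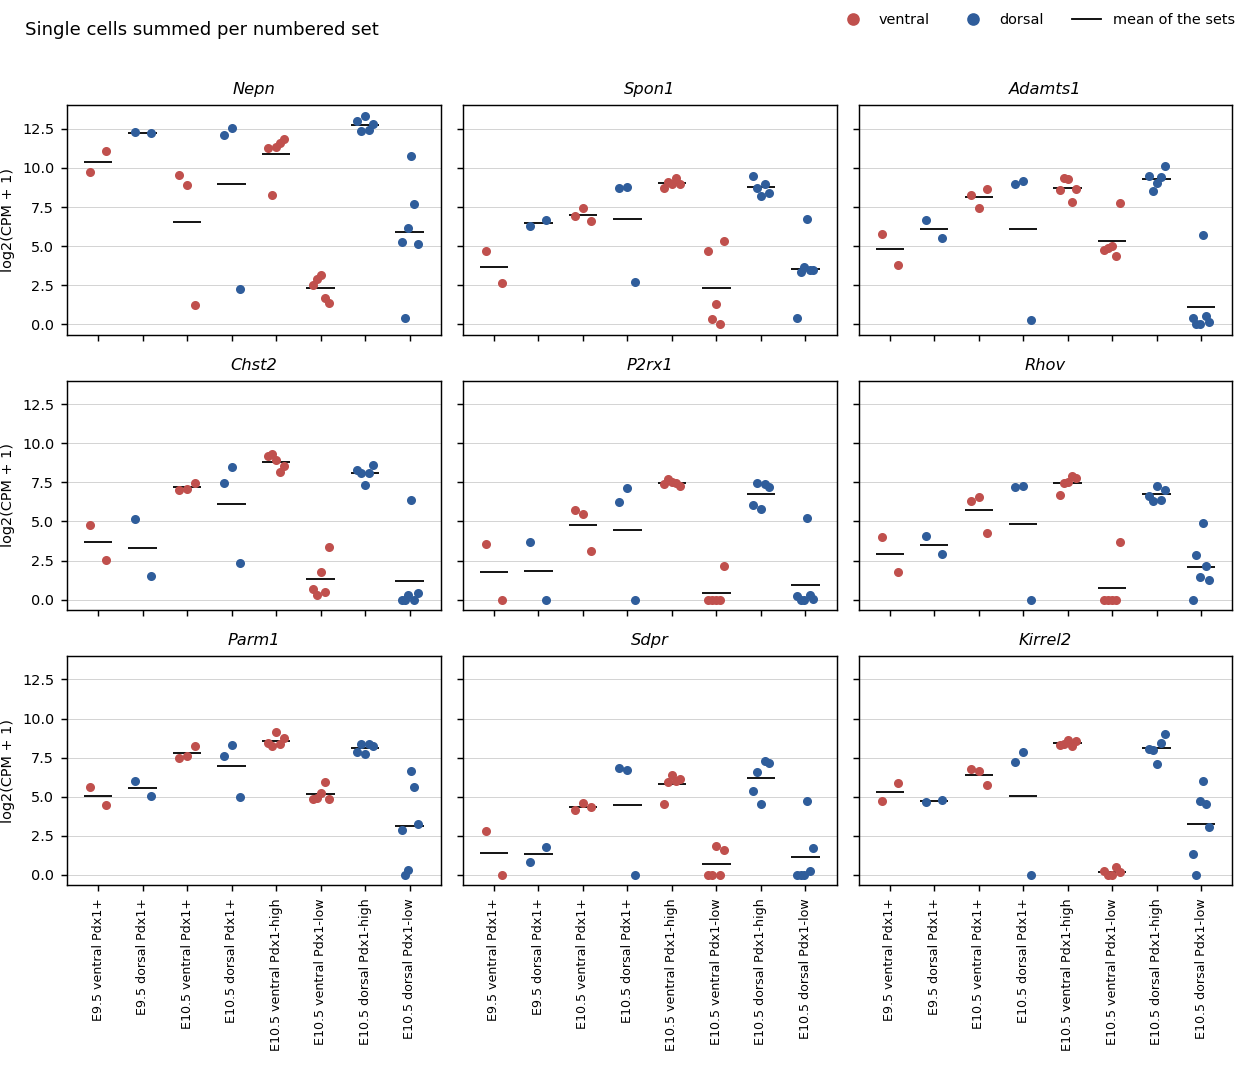
Level of each member as log2(CPM + 1) in single cells summed per numbered set (points; black bar, mean of the sets), ventral in red and dorsal in blue, for Pdx1+ cells of E9.5 and E10.5 and for E10.5 Pdx1-high and Pdx1-low cells. Pdx1-high sets lie above Pdx1-low sets except for dorsal *Sdpr*, and the low dorsal E10.5 Pdx1+ point in each panel is set 3.

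The gates also separated markers of other cells. The summed level of 12 alpha cell markers, *Gcg* among them, was 41.3 to 506 CPM in dorsal Pdx1-high sets (1 of 12 at 0 throughout), against 28831 to 55890 CPM in dorsal Pdx1-low sets. Ventral sets had 160 to 364 CPM of these markers in Pdx1-high cells (1 of 12 at 0), against 771 to 964 CPM in Pdx1-low cells (1 of 12 at 0). The 12 hepatoblast markers summed to 1045 to 1658 CPM in ventral Pdx1-high sets, against 3492 to 12109 CPM in ventral Pdx1-low sets. The 12 pancreatic progenitor markers, *Pdx1* among them, summed to 1763 to 2428 CPM in ventral Pdx1-high sets, against 436 to 733 CPM in ventral Pdx1-low sets. In dorsal cells the progenitor markers summed to 1704 to 2378 CPM in Pdx1-high sets, against 316 to 508 CPM in Pdx1-low sets. The Pdx1-low gates thus held different cells on the 2 sides, and the part of these cells in the high to low contrast of the members was not tested.

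Within the Pdx1-high gate the sides differed most for *Nepn*, again as a description. *Nepn* averaged 2435 CPM over ventral sets and 7269 CPM over dorsal sets, a log2 difference of -1.58, and its 5 ventral values lay below its 5 dorsal values. The other 8 members had log2 differences between -0.63 (*Sdpr*) and 0.76 (*Rhov*), with a median over all 9 of 0.21. *Chst2* averaged 470.5 CPM in ventral and 280 CPM in dorsal sets, and *Kirrel2* 342 CPM in ventral and 304 CPM in dorsal sets.

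The wider E10.5 Pdx1+ gate took in cells with and without the group. Of 59 ventral Pdx1+ cells, 18 (30.5%) had 7 to 9 members, 10 had 3 to 6 and 31 had 0 to 2. Of 27 dorsal Pdx1+ cells, 18 (66.7%) had 7 to 9 members, none had 3 to 6 and 9 had 0 to 2. By set, the ventral counts with 7 to 9 members were 10 of 33, 7 of 22 and 1 of 4 cells, and the dorsal ones 8 of 11, 10 of 10 and 0 of 6. Without dorsal set 3 the dorsal share was 85.7% (18 of 21 cells). By the endogenous *Pdx1* transcript, ventral Pdx1+ cells with 7 to 9 members had a median of 281 CPM of *Pdx1* (98.5 to 458), and those with 0 to 2 had a median of 0 (0 to 292). Dorsal Pdx1+ cells with 7 to 9 members had a median of 234 CPM (77.1 to 404), and those with 0 to 2, of which 6 of 9 were set 3, also had a median of 0 (0 to 144). On both sides the ranges of the classes overlapped.

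**Figure D3:**
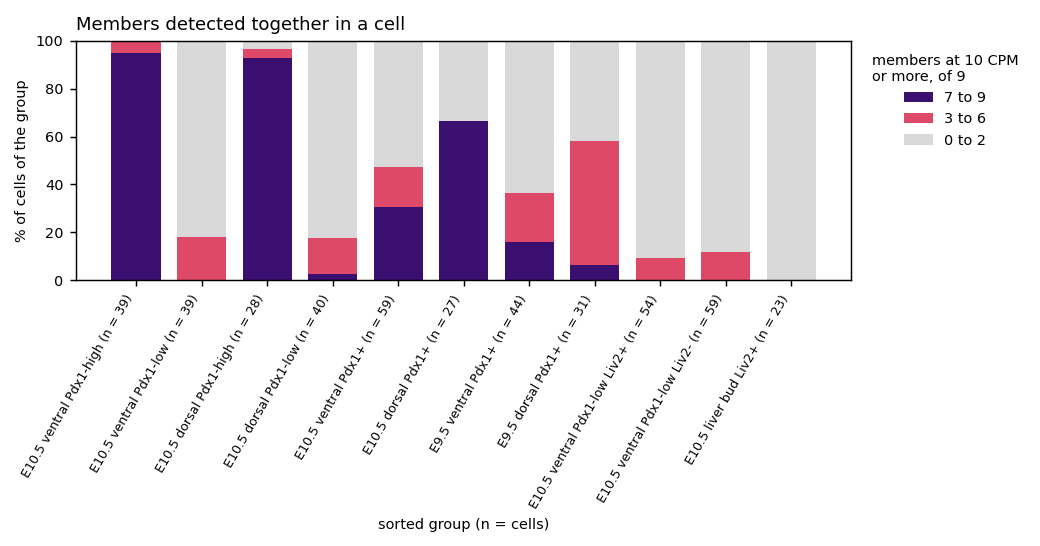
Percent of the cells of each sorted group (columns, n = cells) with 7 to 9, 3 to 6 or 0 to 2 of the 9 members at 10 CPM or more. Pdx1-high cells are almost all in the 7 to 9 class, E10.5 Pdx1+ cells split at 30.5% (ventral) and 66.7% (dorsal), and E9.5 cells are mostly in the lower classes.

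As a rank correlation over cells of 1 gate, which share a sort but differ in depth, *Pdx1* and the members had a Spearman rho of 0.54 to 0.75 in ventral E10.5 Pdx1+ cells (n = 59), while the members' rho with the cell's read total was 0.01 to 0.21. In dorsal E10.5 Pdx1+ cells (n = 27) rho with *Pdx1* was 0.54 to 0.84. Without set 3 it was 0.14 to 0.70 (n = 21), with a median of 0.42 in place of 0.68. In these 21 cells the members' rho with the read total was 0.12 to 0.47. For *Chst2* (0.46 with the total, 0.17 with *Pdx1*) and *P2rx1* (0.26 and 0.14) it exceeded that with *Pdx1*. The same held for *Rhov* (0.47 and 0.42) and *Sdpr* (0.42 and 0.29), and not for the other members. Within dorsal set 2 (n = 10) rho with *Pdx1* ran from -0.47 to 0.54. Ventral E9.5 cells (n = 44) gave 0.02 to 0.31 with a median of 0.07, against 0.23 to 0.46 with a median of 0.35 in set 1 alone (n = 28), and dorsal E9.5 cells (n = 31) gave -0.02 to 0.55.

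At E9.5, *Nepn* was the most widely detected of the 9. It was at 10 CPM or more in 27 of 44 ventral cells (61.4%, exact 95% interval 45.5 to 75.6%) and in 31 of 31 dorsal cells (100%, 88.8 to 100%). Its sets had 850 and 2164 CPM in ventral cells, against 4988 and 4862 CPM in dorsal cells. Both ventral sets lay below both dorsal sets, as they did for 13.6% of all genes. *P2rx1* was found in 9 of 44 ventral and 1 of 31 dorsal cells, *Sdpr* in 5 of 44 ventral and 1 of 31 dorsal cells, and *Kirrel2* in 10 of 44 ventral and 5 of 31 dorsal cells. As many as 7 to 9 members were found in 7 of 44 ventral and 2 of 31 dorsal cells. All 7 of the ventral ones came from set 1, and 5 of them were among the 25 cells with the stem cell protocol in their labels and 2 among the other 19. Both dorsal cells came from set 1 as well.

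Against E9.5, the E10.5 Pdx1+ sets held more of most members, but no member passed the test over sets. *Chst2* had 126, 133 and 176 CPM in ventral E10.5 sets, against 25.9 and 4.89 CPM in ventral E9.5 sets. *Chst2* in dorsal sets had 172, 358 and 4.01 CPM at E10.5, against 35.3 and 1.79 CPM at E9.5; the 4.01 CPM is set 3. The ventral groups did not overlap and the dorsal groups did. Of all genes, 8.48% were higher without overlap in ventral E10.5 sets. *Spon1* had 123, 172 and 97.8 CPM in ventral E10.5 sets, against 24.4 and 5.15 CPM at E9.5, and 419, 441 and 5.54 CPM in dorsal E10.5 sets, against 77.7 and 99.0 CPM at E9.5. *Nepn* went the other way in its fitted values, with 760, 473 and 1.37 CPM in ventral E10.5 sets, against 850 and 2164 CPM at E9.5. In dorsal sets *Nepn* had 3.82 (set 3), 4494 and 6067 CPM at E10.5, against 4862 and 4988 CPM at E9.5. Of these, 4494 CPM lay below and 6067 CPM above both E9.5 values, so apart from set 3 the dorsal sets showed no clear direction. The log2 folds of E10.5 over E9.5 were above 0 for 8 of 9 members on each side, all but *Nepn*, with medians of 2.72 (ventral) and 2.33 (dorsal). Over all genes tested the medians were -0.01 (ventral) and 0.002 (dorsal). Since the genes were listed for high levels in E10.5 cells, the direction of these folds is read as a description. By edgeR's quasi-likelihood test 0 of 9 members passed an adjusted p of 0.05 on either side, where 0% (ventral) and 0.275% (dorsal) of all genes did. At an unadjusted p under 0.05 there were 0 members on the ventral side and 1 on the dorsal side, *Sdpr* (log2 fold 5.40, SE 2.43, adjusted p = 0.543), and DESeq2 called 0 on both. Standard errors of 1.27 to 2.43 for these folds mean that changes of several fold were not detectable with 2 and 3 sets a group. Between sides, ventral over dorsal, edgeR called 0 of 9 members in E10.5 Pdx1+ sets (0.402% of all genes) and 0 of 9 in E9.5 sets (0% of all genes), with 0 at an unadjusted p under 0.05 and 0 by DESeq2 in each. The difference between sides in the E10.5 to E9.5 change gave 0 calls by edgeR and DESeq2 and 0 at an unadjusted p under 0.05 (0.0516% of all genes).

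In bulk E10.5 Pdx1+ libraries, with 2 per side, all 9 members were lower on the ventral side. *Nepn* had 528 and 478 CPM in ventral libraries, against 2490 and 2481 CPM in dorsal libraries. *Kirrel2* had 90.0 and 106 CPM in ventral libraries, against 273 and 291 CPM in dorsal libraries. *Chst2* had 92.0 and 93.6 CPM in ventral libraries, against 309 and 298 CPM in dorsal libraries. Ventral and dorsal libraries did not overlap for these or for any of the other 6; of all genes, 34.7% were lower without overlap. As RPKM, *Nepn* was the highest of the 9, with 289 and 262 in ventral libraries, against 1364 and 1359 in dorsal libraries. The rest ran in dorsal libraries down to 19.7 and 19.4 RPKM for *Sdpr*.

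The log2 fold of ventral over dorsal was -2.30 (SE 0.25, adjusted p = 9.59e-05) for *Nepn*, -1.71 (SE 0.19, adjusted p = 3.84e-05) for *Chst2* and -1.52 (SE 0.11, adjusted p = 1.78e-08) for *Kirrel2*. *Parm1* had the smallest fold, -0.91 (SE 0.07, adjusted p = 1.2e-07). The members' median was -1.52, against -0.03 over all 17690 genes tested. All 9 passed by edgeR's quasi-likelihood test, each as lower, where 24.7% of all genes passed in either direction and 2564 of the 17690 as lower. Since the genes were listed for high levels in Pdx1-high cells, these calls are read as a description of them. *Spon1*, with 167 and 168 CPM in ventral against 418 and 458 CPM in dorsal libraries, had a log2 fold of -1.38 (SE 0.31, adjusted p = 0.0108), and its call ended without dorsal library 2 (adjusted p = 0.0657), ventral library 1 (0.0673) or ventral library 2 (0.0635). *Pdx1* itself had 99.5 and 112 CPM in ventral libraries, against 236 and 244 CPM in dorsal libraries. Progenitor markers summed to 877 to 932 CPM in ventral libraries, against 1570 to 1632 CPM in dorsal libraries. Alpha cell markers summed to 240 to 293 CPM in ventral libraries, against 3845 to 3949 CPM in dorsal libraries. Markers of other tissues were higher on the ventral side: 8 cardiac muscle markers summed to 1317 to 2303 CPM in ventral libraries, against 8.13 to 28.2 CPM in dorsal ones, 12 hepatoblast markers to 5367 to 5746 against 2032 to 2148 CPM, and 10 mesenchyme markers to 604 to 990 against 91.3 to 113 CPM (1 of 10 at 0 in dorsal libraries). Their part in the members' lower ventral level was not tested.

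**Figure D4:**
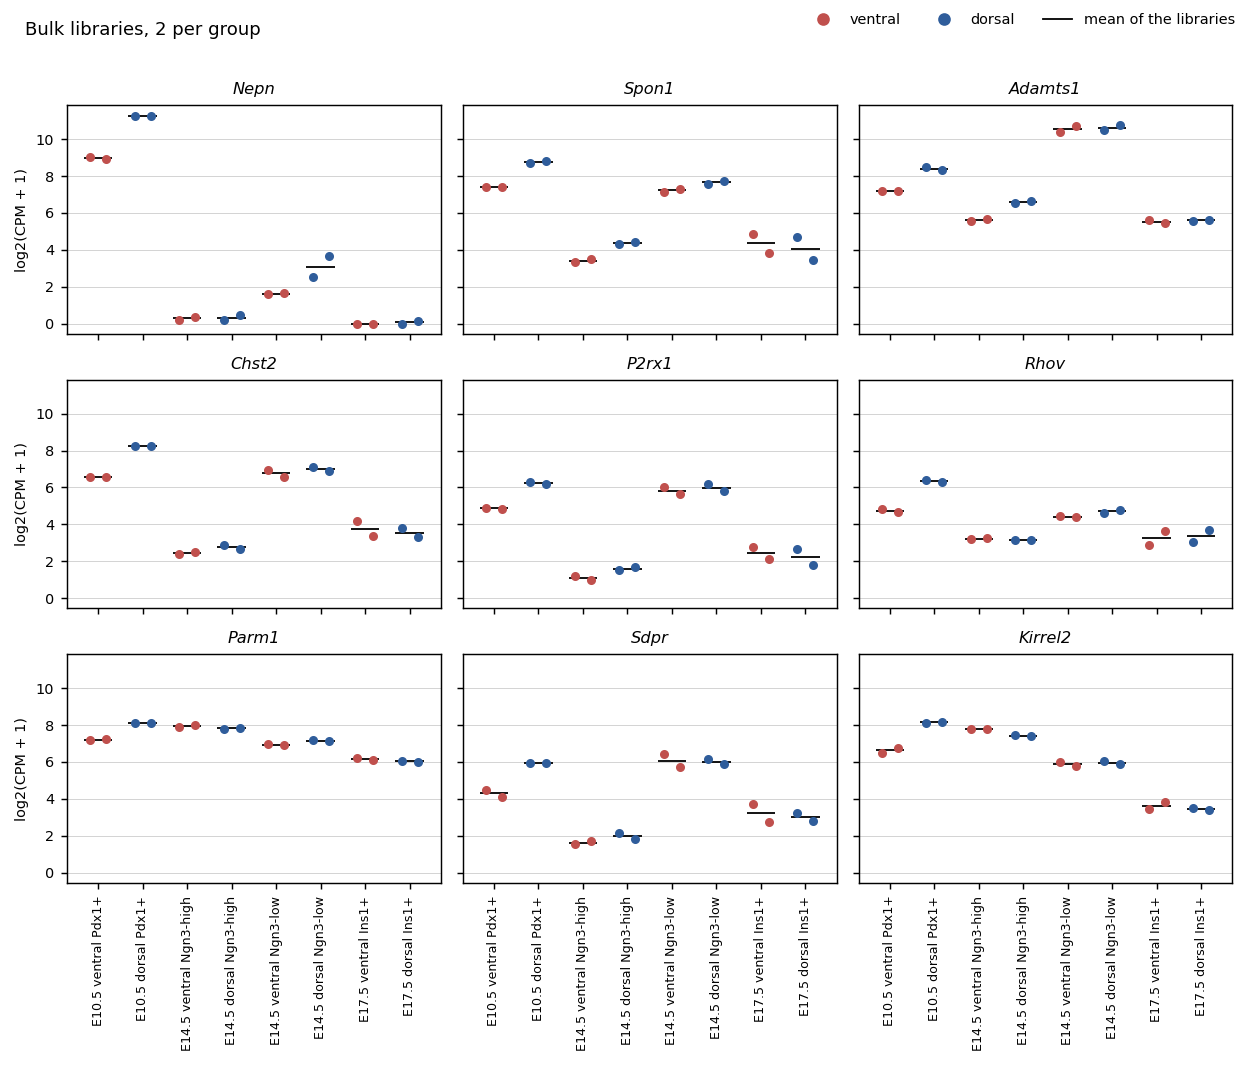
Level of each member as log2(CPM + 1) in the bulk libraries (points, 2 per group; black bar, mean), ventral in red and dorsal in blue, in stage order with Ngn3-high left of Ngn3-low. At E10.5 the ventral points lie below the dorsal points in every panel, and *Nepn* is near 0 in Ngn3-high and Ins1+ cells.

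From E10.5 Pdx1+ to E14.5 Ngn3-low cells the members did not all move the same way. *Nepn* fell and *Adamts1* rose on both sides, *Parm1* and *Kirrel2* also fell on both sides, and the other 5 passed the test on 1 side each. These libraries differ in stage, reporter line and gate at once, which cannot be told apart. *Nepn* was nearly lost, with 2.01 and 2.13 CPM in ventral E14.5 Ngn3-low libraries, against 528 and 478 CPM in ventral E10.5 libraries, and with 4.71 and 11.6 CPM in dorsal Ngn3-low libraries, against 2490 and 2481 CPM in dorsal E10.5 libraries. Its log2 fold was -7.92 (SE 0.36, adjusted p = 5.81e-08) on the ventral and -8.25 (SE 0.33, adjusted p = 2.01e-08) on the dorsal side. *Adamts1* moved the opposite way. It had 1368 and 1700 CPM in ventral Ngn3-low libraries, against 146 and 143 CPM in ventral E10.5 libraries, and 1452 and 1719 CPM in dorsal Ngn3-low libraries, against 355 and 324 CPM in dorsal E10.5 libraries. Its log2 fold was 3.41 (SE 0.12, adjusted p = 2.29e-12) ventral and 2.22 (SE 0.12, adjusted p = 1.28e-10) dorsal, and with 297 and 352 RPKM in dorsal Ngn3-low libraries it took over from *Nepn* as the highest of the 9.

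Of the other 7 members on the ventral side, *P2rx1* (log2 fold 1.00) and *Sdpr* (1.88) rose, *Parm1* (-0.28) and *Kirrel2* (-0.76) fell, and *Spon1* (-0.18, adjusted p = 0.659), *Chst2* (0.22, adjusted p = 0.356) and *Rhov* (-0.34, adjusted p = 0.187) did not pass. On the dorsal side *Spon1* (-1.11), *Chst2* (-1.25), *Rhov* (-1.68), *Parm1* (-0.97) and *Kirrel2* (-2.21) fell, while *P2rx1* (-0.24, adjusted p = 0.339) and *Sdpr* (0.10, adjusted p = 0.788) did not pass. The *Spon1* call on the dorsal side ended without dorsal E10.5 library 2 (adjusted p = 0.0602) or dorsal Ngn3-low library 1 (0.0808). In all, edgeR called 3 members higher and 3 lower on the ventral side, where 27.1% and 28.1% of all genes were, and 1 higher and 6 lower on the dorsal side, where 27.6% and 32.2% were. The ventral counts were thus near the shares of all genes. The 10 endothelial markers, none at 0, summed to 307 to 976 CPM in ventral Ngn3-low libraries, against 41.5 to 82.3 CPM in ventral E10.5 libraries, and to 450 to 878 CPM in dorsal Ngn3-low libraries, against 13.3 to 22.2 CPM in dorsal E10.5 libraries. The 10 acinar markers summed to 3463 to 3966 CPM in ventral Ngn3-low libraries, against 81.5 to 83.0 CPM in ventral E10.5 libraries (1 of 10 at 0), and to 4225 to 4827 CPM in dorsal Ngn3-low libraries, against 259 to 269 CPM in dorsal E10.5 libraries (1 of 10 at 0). Cardiac muscle markers summed to 1.96 to 2.72 CPM in ventral Ngn3-low libraries (1 of 8 at 0), against 1317 to 2303 CPM in ventral E10.5 libraries, and hepatoblast markers to 1686 to 1797 CPM against 5367 to 5746 CPM. Alpha cell markers summed to 221 to 371 CPM in dorsal Ngn3-low libraries, against 3845 to 3949 CPM in dorsal E10.5 libraries. The part of these markers in the members' changes was not tested.

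The change between these stages differed by side for 7 of 9 members, all 7 with the more positive change on the ventral side (7.62% of all genes had such a call). The difference, ventral log2 change minus dorsal log2 change, was 1.45 (SE 0.15, adjusted p = 5.18e-06) for *Kirrel2*, 1.18 (SE 0.16, adjusted p = 6.97e-05) for *Adamts1* and 0.69 (SE 0.10, adjusted p = 0.000279) for *Parm1*. For *Chst2* it was 1.47 (adjusted p = 0.0032), for *Rhov* 1.33 (adjusted p = 0.00713), for *P2rx1* 1.24 (adjusted p = 0.0163) and for *Sdpr* 1.78 (adjusted p = 0.0165). *Nepn* (0.34, adjusted p = 0.786) and *Spon1* (0.93, adjusted p = 0.244) did not pass, although *Nepn* did without dorsal Ngn3-low library 2 (adjusted p = 0.0139). The calls for *P2rx1* and *Sdpr* were the weak ones: leaving out dorsal E10.5 library 1 or 2, ventral E10.5 library 1 or 2, dorsal Ngn3-low library 2 or ventral Ngn3-low library 1 took *P2rx1* to adjusted p = 0.0661, 0.0523, 0.0571, 0.0623, 0.0667 and 0.0549 in that order. *Sdpr* went to 0.0524 without dorsal E10.5 library 1, 0.0568 without library 2, 0.0737 without ventral E10.5 library 2 and 0.0702 without dorsal Ngn3-low library 2. The ventral E10.5 libraries enter this difference as they enter the lower ventral level at E10.5, so the 2 results are not independent. These calls, too, are read as a description.

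Few members differed between ventral and dorsal cells at E14.5 and E17.5. In Ngn3-low libraries edgeR called 0 of 9 members between ventral and dorsal, where 0.017% of all genes were called, with 2 at an unadjusted p under 0.05 (*Nepn* and *Parm1*) and 1 by DESeq2 (*Nepn*). The ventral and dorsal *Nepn* values, 2.01 and 2.13 against 4.71 and 11.6 CPM, gave a log2 fold of -1.97 (SE 0.41, adjusted p = 0.509). That fold passed under DESeq2 (adjusted p = 3.88e-07) and without dorsal library 1 (9e-05). In Ngn3-high libraries 1 member was called, *Adamts1*, with 46.0 and 50.4 CPM in ventral against 90.4 and 99.8 CPM in dorsal libraries (log2 fold -0.98, SE 0.12, adjusted p = 0.000612; 0.475% of all genes were called lower). At an unadjusted p under 0.05 there were 3, *Adamts1*, *Spon1* and *Kirrel2*, and DESeq2 called 1. *Spon1* had 9.00 and 10.4 CPM in ventral against 18.9 and 20.8 CPM in dorsal Ngn3-high libraries, with a log2 fold of -1.02 (SE 0.40, adjusted p = 0.753). In E17.5 Ins1+ libraries 0 of 9 were called by edgeR (0.0283% of all genes), with 0 at an unadjusted p under 0.05 and 0 by DESeq2.

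Between the E14.5 gates the group split. In Ngn3-high against Ngn3-low cells 7 of 9 members fell and 2 rose, with the same members in each direction on both sides. The 2 that rose encode surface proteins, but so does *P2rx1*, which fell. *Kirrel2* had 216 and 223 CPM in ventral Ngn3-high libraries, against 61.6 and 54.2 CPM in ventral Ngn3-low libraries, and 177 and 166 CPM in dorsal Ngn3-high libraries, against 64.2 and 57.6 CPM in dorsal Ngn3-low libraries. *Parm1* had 240 and 258 CPM in ventral Ngn3-high libraries, against 122 and 121 CPM in ventral Ngn3-low libraries, and 221 and 231 CPM in dorsal Ngn3-high libraries, against 145 and 139 CPM in dorsal Ngn3-low libraries. The gates did not overlap for either gene on either side, where 37.5% (ventral) and 39.3% (dorsal) of all genes were higher without overlap. The log2 fold of *Kirrel2* was 1.92 (SE 0.11, adjusted p = 1.32e-10) ventral and 1.5 (SE 0.11, adjusted p = 3.13e-09) dorsal, and that of *Parm1* 1.03 (SE 0.07, adjusted p = 3.74e-09) ventral and 0.67 (SE 0.07, adjusted p = 7.41e-07) dorsal.

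Of the 7 that fell, *Adamts1* had the smallest adjusted p. It had 46.0 and 50.4 CPM in ventral Ngn3-high libraries, against 1368 and 1700 CPM in ventral Ngn3-low libraries (log2 fold -4.99, SE 0.13, adjusted p = 2.36e-14), and its dorsal log2 fold was -4.06 (SE 0.13, adjusted p = 1.34e-13). The ATP-gated channel *P2rx1* had 1.26 and 0.964 CPM in ventral Ngn3-high libraries, against 63.0 and 49.4 CPM in ventral Ngn3-low libraries. Its log2 fold was -5.66 (SE 0.32, adjusted p = 2.6e-09) ventral and -5.0 (SE 0.29, adjusted p = 3.69e-09) dorsal. The sulfotransferase *Chst2* had 4.31 and 4.64 CPM in ventral Ngn3-high libraries, against 122 and 93.9 CPM in ventral Ngn3-low libraries, with log2 folds of -4.59 ventral and -4.44 dorsal. In each of these the lower gate was far below the higher one, with no overlap. Of all genes, 40.4% (ventral) and 42.1% (dorsal) were lower without overlap. *Spon1* had log2 folds of -3.93 ventral and -3.36 dorsal, and *Sdpr* -5.03 ventral and -4.37 dorsal. *Rhov* had the mildest loss, -1.28 (SE 0.23, adjusted p = 0.000162) ventral and -1.69 (SE 0.22, adjusted p = 1.11e-05) dorsal, and remained at 8.11 and 8.49 CPM in ventral and 7.76 and 7.80 CPM in dorsal Ngn3-high libraries. *Nepn* rested on few reads: 2 and 5 in ventral and 3 and 4 in dorsal Ngn3-high libraries. Its log2 fold was -3.10 (SE 0.84, adjusted p = 0.0091) ventral, which ended without ventral Ngn3-high library 1 (adjusted p = 0.0583), and -5.29 (SE 0.63, adjusted p = 5.11e-05) dorsal.

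Of all genes, 29.5% were higher and 32.4% lower in ventral Ngn3-high cells, and 29.2% and 32.1% in dorsal ones. The members' median log2 fold was -3.93 ventral and -4.06 dorsal, against -0.01 over all genes tested on the dorsal side. In a test of whether the gate difference itself differed between sides, edgeR called 0 of 9 members (0.0283% of all genes), with 3 at an unadjusted p under 0.05 and 1 by DESeq2, *Adamts1* (difference of log2 folds -0.93, SE 0.16, adjusted p = 0.0705 by edgeR and 0.000118 by DESeq2). For *Adamts1* the edgeR adjusted p was 0.0309 without ventral Ngn3-low library 1. *Pdx1* itself had 466 and 508 CPM in ventral Ngn3-high libraries, against 145 and 160 CPM in ventral Ngn3-low libraries. In dorsal libraries *Pdx1* had 450 and 466 CPM in Ngn3-high cells, against 166 and 152 CPM in Ngn3-low cells. The 7 members that fell were thus lower in the gate with more *Pdx1* transcript, and its part was not tested. Markers of other cells moved with the gate. The 10 mesenchyme markers summed to 74.6 to 114 CPM in ventral Ngn3-high libraries, against 308 to 1245 CPM in ventral Ngn3-low libraries. In dorsal libraries they summed to 127 to 162 CPM, against 238 to 481 CPM. The 8 immune markers summed to 16.3 to 21.5 CPM in ventral and 20.1 to 21.8 CPM in dorsal Ngn3-high libraries. In Ngn3-low libraries they summed to 131 to 184 CPM (ventral) and 163 to 173 CPM (dorsal). The 10 endothelial markers summed to 15.9 to 25.3 CPM in ventral Ngn3-high libraries, against 307 to 976 CPM in ventral Ngn3-low libraries, and to 19.99 to 25.9 CPM in dorsal Ngn3-high libraries, against 450 to 878 CPM in dorsal Ngn3-low libraries, with none of the 10 at 0. The 10 acinar markers summed to 49.2 to 66.1 CPM in ventral Ngn3-high libraries, against 3463 to 3966 CPM in ventral Ngn3-low libraries, and to 154 to 158 CPM in dorsal Ngn3-high libraries, against 4225 to 4827 CPM in dorsal Ngn3-low libraries. The 12 alpha cell markers ran the other way, with 13956 to 14710 CPM in ventral Ngn3-high libraries, against 205 to 216 CPM in ventral Ngn3-low libraries. None of these markers was at 0. Their part in the fall of the 7 members and the rise of the other 2 was not tested.

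**Figure D5:**
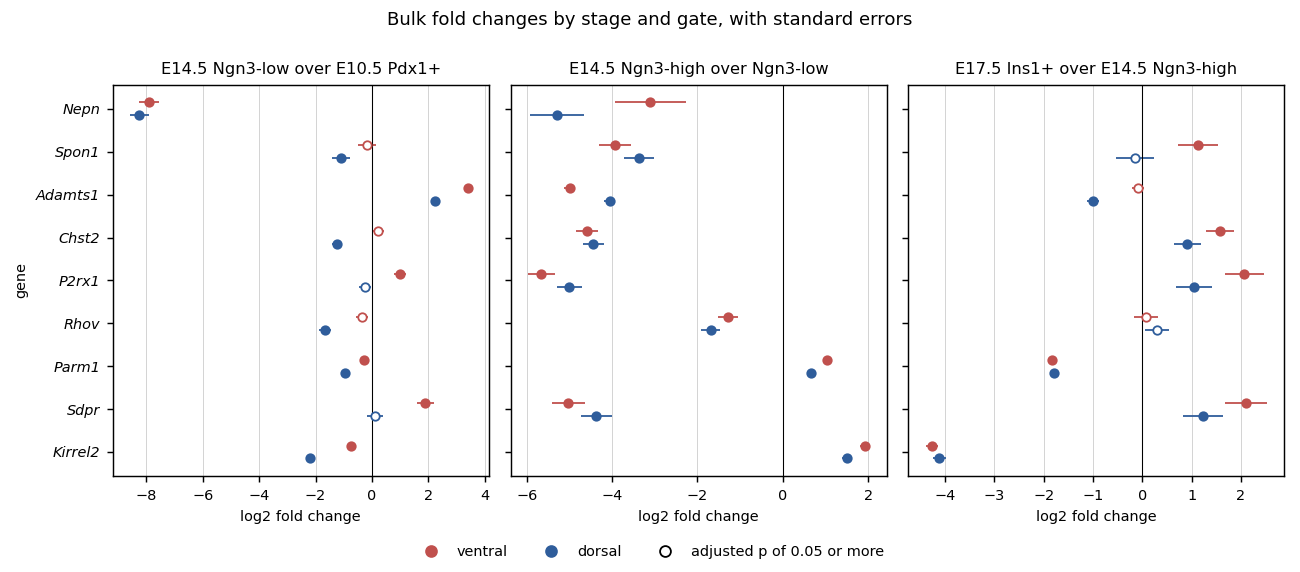
Log2 fold change (point) with its standard error (line) of each member at 3 steps, ventral in red and dorsal in blue; filled points have an adjusted p under 0.05 by edgeR. In the middle panel 7 members lie below 0 and *Parm1* and *Kirrel2* above 0 on both sides; *Nepn* is left out of the right panel because it had 0 or 1 reads in each Ins1+ library.

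In E17.5 Ins1+ cells, sorted by an insulin reporter, 8 of the 9 members were still read. Their CPM was lower in each Ins1+ library than in either E10.5 library of its side. This step was not tested, and the share of all genes with such a gap was not counted. Since the genes were listed for high levels in E10.5 cells, it is read as a description. *Nepn* had 0 and 0 reads in ventral and 0 and 1 reads in dorsal libraries, so no fold is given. *Pdx1* itself had 564 and 580 CPM in ventral and 519 and 537 CPM in dorsal Ins1+ libraries. *Kirrel2*, which had risen in Ngn3-high cells, had 10.1 and 12.9 CPM in ventral Ins1+ libraries, against 216 and 223 CPM in ventral Ngn3-high libraries, and 10.3 and 9.41 CPM in dorsal Ins1+ libraries, against 177 and 166 CPM in dorsal Ngn3-high libraries. Its log2 fold was -4.27 (SE 0.13, adjusted p = 6.51e-13) ventral and -4.12 (SE 0.13, adjusted p = 1.4e-12) dorsal. *Parm1* fell less, with log2 folds of -1.83 ventral and -1.80 dorsal, and remained at 72.7 and 67.2 CPM in ventral and 66.4 and 63.5 CPM in dorsal Ins1+ libraries. *Adamts1* fell on the dorsal side (log2 fold -1.0, SE 0.12, adjusted p = 3.86e-06) (46.2 and 48.6 CPM in Ins1+ libraries, against 90.4 and 99.8 CPM in Ngn3-high libraries) and did not pass on the ventral side (-0.08, adjusted p = 0.591); this difference between sides was not tested.

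Some members were higher in Ins1+ than in Ngn3-high cells, at low levels. *Chst2* had 16.9 and 9.28 CPM in ventral Ins1+ libraries, against 4.31 and 4.64 CPM in ventral Ngn3-high libraries (log2 fold 1.57, SE 0.29, adjusted p = 0.000658). *P2rx1* (log2 fold 2.06, adjusted p = 0.000743), *Sdpr* (2.11, adjusted p = 0.0018) and *Spon1* (1.13, adjusted p = 0.042) rose as well on the ventral side. The *Spon1* call ended without ventral Ngn3-high library 1 (adjusted p = 0.162) or 2 (0.114) and without ventral Ins1+ library 1 (0.447). On the dorsal side *Chst2* (0.91, adjusted p = 0.0178), *P2rx1* (1.05, adjusted p = 0.029) and *Sdpr* (1.22, adjusted p = 0.0295) rose. All 3 dorsal calls ended without any 1 of 3 libraries: dorsal Ngn3-high library 1 (adjusted p = 0.0643 for *Chst2*, 0.201 for *P2rx1* and 0.0753 for *Sdpr*), dorsal Ngn3-high library 2 (0.0767, 0.0588 and 0.116 in the same order) and dorsal Ins1+ library 1 (0.23, 0.594 and 0.224). In counts, 4 members were higher and 2 lower on the ventral side, where 26.6% and 24.5% of all genes were, and 3 higher and 3 lower on the dorsal side, where 24.4% and 23.1% were. These comparisons share the Ngn3-high libraries with those between the Ngn3 gates, so low Ngn3-high values enter both. The 10 mesenchyme markers summed to 1188 to 2929 CPM in ventral Ins1+ libraries, against 74.6 to 114 CPM in ventral Ngn3-high libraries, and to 857 to 2058 CPM in dorsal Ins1+ libraries, against 127 to 162 CPM in dorsal Ngn3-high libraries. Acinar markers summed to 4203 to 4362 CPM in ventral Ins1+ libraries, against 49.2 to 66.1 CPM in ventral Ngn3-high libraries, and to 4452 to 4783 CPM in dorsal Ins1+ libraries, against 154 to 158 CPM in dorsal Ngn3-high libraries. Endothelial markers summed to 44.5 to 121 CPM in ventral Ins1+ libraries, against 15.9 to 25.3 CPM in ventral Ngn3-high libraries. In dorsal libraries they summed to 46.1 to 103 CPM, against 19.99 to 25.9 CPM. Immune markers summed to 127 to 268 CPM in ventral Ins1+ libraries, against 16.3 to 21.5 CPM in ventral Ngn3-high libraries. Their dorsal sums were 95.1 to 220 CPM, against 20.1 to 21.8 CPM. The part of these 4 marker lists in the higher *Chst2*, *P2rx1*, *Sdpr* and *Spon1* was not tested.

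Across the 11 single-cell groups, the pattern of mean levels paired some members with each other and others with different genes. *Chst2*, *P2rx1* and *Rhov* were each other's closest neighbours among 10763 genes, with Pearson r of 0.991 to 0.996 on log2(mean CPM + 1); across the 8 bulk groups the same pairs had r of 0.879 to 0.988. *Nepn* was closest to the homeobox gene *Nkx6-2* (r = 0.97 in cells and 0.99 in bulk). *Kirrel2* was closest to *Ptf1a*, a transcription factor of pancreatic progenitors and acinar cells, in single cells (r = 0.98), but not in bulk (r = 0.13). *Sdpr* was closest to the matrix gene *Matn4* (r = 0.99 in cells and 0.95 in bulk), and *Adamts1* and *Parm1* were near each other in cells (r = 0.97) but not in bulk (r = 0.18). These correlations run over groups that differ strongly in cell type, and carry no test. The 11 groups include the Pdx1-high and Pdx1-low cells by which the members were chosen. High correlations between members in single cells are therefore not independent of that choice.

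Relatives of the members were counted in the same comparison, in which 29.5% of all genes rose and 32.4% fell on the ventral side, and 29.2% rose and 32.1% fell on the dorsal side. Of 20 genes for ADAMTS proteases and their TIMP inhibitors, 16 were lower and none higher in Ngn3-high than in Ngn3-low cells, on the ventral as on the dorsal side. *Adamts16* (log2 fold -5.46 ventral, -4.25 dorsal) and *Adamts9* (-4.12 ventral, -3.75 dorsal) fell to a degree similar to *Adamts1*. Of 18 basement membrane genes, 18 ventral and 16 dorsal fell and none rose, such as the laminin gene *Lamc1* (-2.21 ventral, -2.06 dorsal). Of 19 sulfotransferases, 3 rose and 6 fell ventral, and 2 rose and 9 fell dorsal, so that the ventral counts were no higher than the shares of all genes; *Chst8* went opposite to *Chst2* (5.52 ventral, 6.39 dorsal). Of 12 purinergic receptors, 2 rose and 9 fell ventral, and 2 rose and 7 fell dorsal; *P2ry1* (2.37 ventral, 2.19 dorsal) and *P2rx4* (1.21 ventral, 1.09 dorsal) rose where *P2rx1* fell. Of 7 nephrin-family and slit diaphragm genes, 1 rose and 5 fell on each side. *Nphs1*, which encodes nephrin, fell (-1.53 ventral, -1.49 dorsal) where *Kirrel2* rose. Of 8 membrane mucins, 3 rose and 4 fell on each side, with *Muc1* falling (-0.92 ventral, -1.32 dorsal) where *Parm1* rose. Of 7 caveolins and cavins, none rose, and 5 fell ventral and 6 dorsal, as *Sdpr* did. *Cav1*, also a gene of endothelial cells, fell as well (-6.46 ventral, -5.03 dorsal). The endothelial, mesenchyme, immune and acinar marker sums given above were also lower in Ngn3-high cells. Their part in the counts of relatives was not tested.

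At E10.5, ventral against dorsal, 10.2% of all genes were higher and 2564 of the 17690 were lower. Of the relatives, 1 of 20 ADAMTS and TIMP genes was higher and 5 lower, 4 of 19 sulfotransferases were higher and 3 lower, 6 of 12 spondins and thrombospondins were higher and none lower, and 10 of 18 basement membrane genes were higher and none lower. The share of sulfotransferases that were lower was near that of all genes. The median log2 fold of basement membrane genes was 0.91, where that of the 9 members was -1.52. Relatives that were lower on the ventral side like the members included *Adamts15* (-1.32, adjusted p = 0.00152), *Adamts5* (-1.70, adjusted p = 0.00346), *Chst8* (-2.12, adjusted p = 5.94e-06), *Nphs1* (-1.10, adjusted p = 0.0024) and *Muc1* (-1.22, adjusted p = 1.94e-05). Among those higher on the ventral side were *Thbs1*, encoding thrombospondin (4.43, adjusted p = 0.000208), and *Hs3st3b1* (3.49, adjusted p = 7.22e-08). The cardiac and mesenchyme marker sums given above moved with these as well, and their part was not tested.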

How the data were processed

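The deposited tables hold raw read counts per gene, which the authors made from bulk and Smart-seq2 single-cell reads; TopHat2 2.1.0, Bowtie2, HTSeq 0.6.0 and the GRCm38 (mm10) genome are named in the submitters' processing notes. Columns were matched to samples by title, and 92 spike-in rows were left out. CPM used all reads on 40824 genes in single cells, and TMM-scaled totals of the genes past the filter in bulk libraries and sets; RPKM used the summed exon length. Counts of cells were summed per numbered set, and 38 of 41 sets had the 3 cells required. Tests used edgeR 4.0.16 (R 4.3.3) quasi-likelihood fits over all 16 bulk libraries or all sets, with TMM scaling, a filter on low counts by group, robust dispersion and Benjamini-Hochberg adjustment over 17690 (bulk) and 17433 (sets) genes at 0.05; all 9 members passed the filter in both. The fits were tested on simulated data. DESeq2 1.42.0, other scalings and filters, a replicate block and leaving out each library or set were tried as alternatives. A cell counted as detected at 10 CPM or more, with exact Clopper-Pearson 95% intervals. Sequences are RefSeq's. All members are named, with Pdx1 as the check of the gates; per related list and comparison, genes past the threshold with the smallest adjusted p were named; each member's 2 nearest genes by pattern were found. Members and lists were chosen with earlier results of these data known, and 1 related gene list is not reported here. Pdx1-high against Pdx1-low cells, and the sides within Pdx1-high cells, were not tested.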

Additional observations from a re-analysis of the deposited data

Results flagged for a closer look

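Within 36 checks of a member in a group of 5 or 6 sets, 12 found the highest set far from the others. The rule flags about 1 in 20 groups of independent values with a normal spread. Here the flagged groups are Pdx1-low sets, many at or near 0 CPM. The members were also listed for high levels in the same cells, so the checks are not independent. The 12 flags therefore cannot be set against that rate. Of these, 7 were dorsal Pdx1-low set 4, the set with 1 cell that carried all 9 members: *Nepn* at 1708 CPM (highest of the other 5 sets, 208), *Spon1* at 105 CPM (11.6), *Adamts1* at 52.0 CPM (0.418), *Chst2* at 82.0 CPM (0.337), *P2rx1* at 36.1 CPM (0.209), *Rhov* at 29.0 CPM (6.19) and *Sdpr* at 25.1 CPM (2.36). Ventral Pdx1-low set 6 stood above the other sets for *Adamts1* (214 CPM), *Chst2* (9.43 CPM), *P2rx1* (3.43 CPM) and *Rhov* (11.7 CPM), and ventral Pdx1-low set 5 for *Parm1* (59.4 CPM).

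The bulk change from E10.5 Pdx1+ to E14.5 Ngn3-low cells differed between the sides, by a test of the difference itself, for 7 members. Of all genes, 7.62% had such a call. The lower ventral E10.5 levels enter this difference, and the genes were listed for high E10.5 levels, so it is read as a description. Leaving out 1 library ended the call for *P2rx1* in 6 settings and for *Sdpr* in 4. The ventral change exceeded the dorsal change on the log2 scale by 1.18 for *Adamts1*, 1.47 for *Chst2*, 1.24 for *P2rx1*, 1.33 for *Rhov*, 0.69 for *Parm1*, 1.78 for *Sdpr* and 1.45 for *Kirrel2*.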

How the results depend on the processing

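No count, share or called member value changed direction under the alternatives tried. Besides the settings that leave out a library or set, counts and shares stayed close in 82 of 88 comparisons with the value reported, and the 60 calls for single members held in 239 of 240; with a library left out they held in 240 of 268. In 14 cases a member that had not passed did so under an alternative. The Ngn3-high count between sides, 1 member, was 3 with no filter on low counts. The Ngn3-low count between sides, 0 members, was 1 under DESeq2, 2 with no filter and 0 to 1 with a library left out. The count for side by gate at E14.5, 0 members, was 1 under DESeq2, with no filter and with the replicate block, and 0 to 1 with a library left out. The dorsal Ins1+ against Ngn3-high count, 6 members, ran from 3 to 6 with a library left out, and the count for side by stage in bulk, 7 members, from 5 to 7. The median Spearman rho of the members with *Pdx1* in dorsal E10.5 Pdx1+ cells was 0.68, and 0.42 without set 3, a setting chosen after seeing the data, as was the share of dorsal cells with 7 to 9 members without it (85.7%). Library numbers were not taken to pair the samples: 2 pairs per bulk comparison are too few to tell, with correlations of same-numbered libraries from 0.01 to 0.48 and the highest between the sides at E17.5, and over sets every such correlation was at most 0.13. With the replicate block the ventral Ins1+ call for *Spon1* ended (adjusted p = 0.0613) and *Adamts1* passed for side by gate (adjusted p = 0.0228). With 2 libraries a group the spread rests on few samples, sets hold as few as 3 cells, and values under 5 CPM in bulk rest on few reads.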
